A study of Mus musculus with 12 samples.

Results

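The 6 mature miRNAs mmu-miR-128-3p, mmu-miR-138-5p, mmu-miR-218-5p, mmu-miR-153-3p, mmu-miR-129-5p and mmu-miR-137-3p (written without the species prefix mmu below) were followed across the 12 small RNA libraries of the study. They were picked by name, as miRNAs known for neuronal expression, from the 1374 mature miRNAs that the libraries list. The study asked how L-methionine (MET) acts on small RNAs of the prefrontal cortex (PFC) of mice that underwent cocaine conditioned place preference (CPP), a test in which the animal learns to associate a chamber with the drug. All animals were adult male C57BL/6 mice that went through the CPP procedure, and the medial PFC was taken 2 hours after the test. The groups were saline with saline (SS), cocaine with saline (CS), MET with saline (MS) and MET with cocaine (MC), with 3 libraries in each. MS and MC mice received subcutaneous L-methionine at 1 g/kg, 2 times a day for 10 days, per the study's methods. A figure legend of the study gives a lower dose. Cocaine was injected intraperitoneally in CS and MC mice. Each library held pooled RNA of a pair of animals, so animal and library cannot be told apart, and it held all cells of the dissected tissue, so fewer neurons and less miRNA per neuron cannot be told apart.

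A miRNA is cut from a hairpin precursor that carries a 5p and a 3p arm. Usually the hairpin yields mostly a single arm, which is loaded onto an Argonaute protein and pairs with target mRNAs through its seed, bases 2 to 8. In neurons such miRNAs are known to tune dendrites, synapses and excitability. miR-128 limits neuronal excitability, miR-138 restrains the growth of dendritic spines, miR-218 is abundant in motor neurons, miR-153 represses the mRNA of alpha-synuclein, miR-129 takes part in homeostatic scaling of synapses, and miR-137 acts in neuronal maturation and lies at a human locus associated with schizophrenia. The 6 mature sequences (RefSeq, GRCm38.p6) are shown because the results below divide by their base composition. Capitals mark the seed.
miR-128-3p: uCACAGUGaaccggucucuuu
miR-138-5p: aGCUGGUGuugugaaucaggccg
miR-218-5p: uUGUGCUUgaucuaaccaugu
miR-153-3p: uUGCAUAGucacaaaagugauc
miR-129-5p: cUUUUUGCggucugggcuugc
miR-137-3p: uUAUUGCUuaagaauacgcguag
The 6 seeds all differ, so the miRNAs do not form a seed family. Among the listed miRNAs with a RefSeq sequence only miR-7002-3p had a member's seed at bases 2 to 8, that of miR-218-5p. It had 7 counts over the 12 libraries. Shifted by 1 base, the miR-128-3p seed also lay in miR-27a-3p (402447 counts), miR-27b-3p (356843) and miR-216a-3p (5). The miR-218-5p seed lay, shifted by 1 base, in miR-7008-3p (44 counts) and miR-7026-3p (15). GC content was 34.8% for miR-137-3p, 36.4% for miR-153-3p and 38.1% for miR-218-5p. It was 47.6% for miR-128-3p, 56.5% for miR-138-5p and 57.1% for miR-129-5p.

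The 10 hairpin genes were located on GRCm38 with the GENCODE M21 annotation. For 3 of the miRNAs, every hairpin lay in an intron of a protein-coding gene on the same strand. Mir128-1 (chr1:128202361-128202430) lay in an intron of R3hdm1, and Mir128-2 (chr9:112118636-112118711) in an intron of Arpp21. Mir153 (chr12:117250817-117250885) lay in an intron of Ptprn2, which encodes a receptor-type phosphatase of secretory vesicles. Mir218-1 (chr5:48223942-48224051) and Mir218-2 (chr11:35616816-35616925) lay in introns of Slit2 and Slit3, which encode axon guidance ligands. Mir129-2 (chr2:94241364-94241453) lay in an intron of the lincRNA gene Mir670hg, with Mir129b on the opposite strand. The other 4 hairpins overlapped exons of noncoding genes or of a pseudogene. These were Mir129-1 (chr6:29022619-29022691) in the lincRNA gene Gm3294, Mir137 (chr3:118433857-118433929) in Gm26871, Mir138-1 (chr9:122682876-122682974) in the pseudogene Gm47135, and Mir138-2 (chr8:94324311-94324381) in the lincRNA gene C78859. The name intronic miRNAs therefore held by this annotation for miR-128, miR-153 and miR-218, in part for miR-129, and not for miR-137 and miR-138.

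The libraries held 7.77 to 11.1 times 1000000 counts, of which 56.0% to 67.9% were on mature miRNAs, and 3 counts corresponded to 0.271 to 0.386 counts per 1000000 (CPM). At the lowest member value, 2831 counts of miR-137-3p, counting error was small beside the spread between libraries. MC replicate 16 stood apart from the other 11 libraries, and the values it touches are given with and without it. In a grouping of the libraries by their precursor rows, which left out the precursors of the 6 miRNAs, SS replicate 12, CS replicate 8 and CS replicate 9 formed a set, CS replicate 10, MC replicate 16 and MC replicate 17 another, and the remaining 6 libraries the third. No MET library was in the first set, and no SS or MS library in the second. The neuronal markers miR-124-3p, miR-128-3p (itself one of the 6 miRNAs) and miR-9-5p were present in every library, with a summed level of 77691 to 250189 CPM. Most of that range came from miR-124-3p, which spanned 30002 to 176336 CPM and varied widely inside SS, CS and MS. In MC miR-124-3p was low in every library, at 33187 to 46349 CPM. Its lowest values elsewhere were 70274 in SS, 30002 in CS and 35552 in MS. The summed level had a median of 110475 CPM in MC, against 234304 in SS, 219852 in CS and 231305 in MS. None of these markers was called by edgeR in MC vs CS or MC vs MS.

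All of the 6 miRNAs were abundant. Together they made up 7.99% (SS replicate 13) to 11.8% (MC replicate 20) of mature miRNA counts, with a median of 8.98%. miR-128-3p had a mean of 21728 ± 3563 CPM (SD, n = 12) and rank 7 of 1374 by mean CPM. miR-138-5p had 21016 ± 3574 CPM and rank 8. miR-218-5p followed with 8276 ± 2583 CPM (rank 18) and miR-153-3p with 4705 ± 2498 CPM (rank 28). miR-129-5p had 1786 ± 674 CPM (rank 57) and miR-137-3p 1428 ± 465 CPM (rank 60). Ligation and capture differ between miRNA sequences, so the order is that of counts. miR-128-3p and miR-138-5p were not separated, since miR-128-3p was the higher in 5 of 12 libraries. miR-138-5p exceeded miR-218-5p in 12 of 12 libraries, miR-218-5p exceeded miR-153-3p in 10, and miR-153-3p exceeded miR-129-5p in 11. miR-129-5p and miR-137-3p were not separated, with miR-129-5p the higher in 7 of 12.

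**Figure D1:**
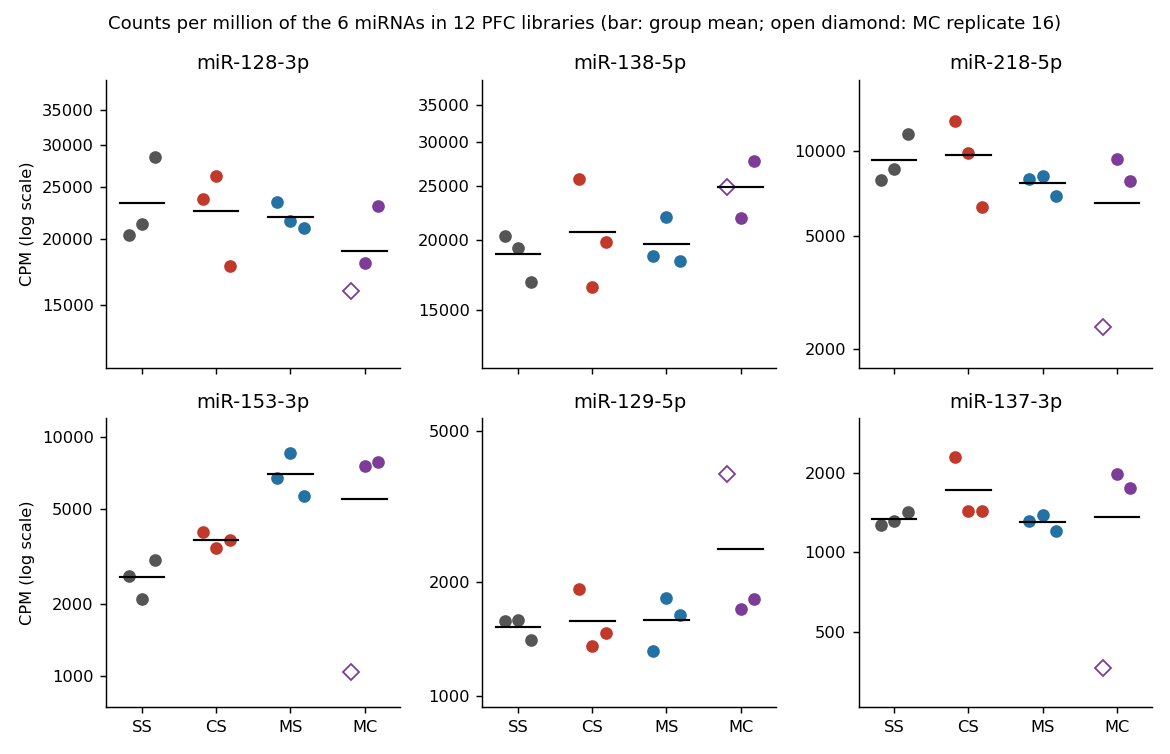
CPM (log axis) of each miRNA in the 12 libraries by group. Points are libraries, bars are group means, and the open diamond is MC replicate 16, which lies below all other libraries for miR-128-3p, miR-218-5p, miR-153-3p and miR-137-3p and above them for miR-129-5p; miR-153-3p is at 5656 to 8548 CPM in the other MET libraries and at 2106 to 4005 CPM in SS and CS.

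miR-153-3p varied most among the 6. It was at 2637, 2106 and 3063 CPM in SS, at 4005, 3427 and 3719 CPM in CS, at 6780, 8548 and 5656 CPM in MS, and at 1043, 7607 and 7868 CPM in MC (replicates 12, 13, 14; 8, 9, 10; 3, 4, 23; and 16, 17, 20). The 3 MS libraries and MC replicates 17 and 20 lay above all 6 libraries without MET, while MC replicate 16 lay below all of them. CS also lay above SS without overlap. The fold between the highest and the lowest library was 8.19, and 4.06 without MC replicate 16.

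miR-218-5p and miR-137-3p shared the low value of MC replicate 16 but not the high values of MS. miR-218-5p was at 7853, 8611 and 11402 CPM in SS, at 12686, 9815 and 6351 CPM in CS, at 7936, 8136 and 6950 CPM in MS, and at 2402, 9362 and 7808 CPM in MC. The groups overlapped, and without MC replicate 16 the fold over the libraries fell from 5.28 to 2.00. miR-137-3p was at 1264, 1316 and 1423 CPM in SS, at 2292, 1430 and 1432 CPM in CS, at 1317, 1384 and 1200 CPM in MS, and at 364, 1970 and 1744 CPM in MC. CS lay above SS without overlap, with 1430 CPM in CS replicate 9 against 1423 CPM in SS replicate 14, and the fold over the libraries was 6.29, or 1.91 without MC replicate 16.

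Over all 12 libraries miR-128-3p and miR-138-5p had the smallest ranges of the 6. miR-128-3p was at 20282, 21296 and 28455 CPM in SS, at 23767, 26187 and 17789 CPM in CS, at 23472, 21600 and 20938 CPM in MS, and at 15953, 17997 and 22997 CPM in MC. miR-138-5p was at 20373, 19361 and 16790 CPM in SS, at 25711, 16467 and 19851 CPM in CS, at 18721, 21967 and 18309 CPM in MS, and at 24945, 21923 and 27770 CPM in MC. Both overlapped between the groups of CS vs SS, MS vs SS, MC vs CS and MC vs MS. In MC and SS, a pair not compared here, miR-138-5p lay higher in MC without overlap. The share of all tested miRNAs that did so was not counted for this pair, so no result is drawn from it. The folds over the libraries were 1.78 for miR-128-3p and 1.69 for miR-138-5p. miR-129-5p was at 1580, 1588 and 1411 CPM in SS, at 1919, 1354 and 1469 CPM in CS, at 1314, 1812 and 1641 CPM in MS, and at 3841, 1695 and 1803 CPM in MC. Here MC replicate 16 was the highest library, and without it the 11 others lay within a 1.46-fold range, below the 1.60-fold of miR-128-3p and the 1.69-fold of miR-138-5p.

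The 6 miRNAs divided in MC replicate 16 by GC content, with those below 40% lower and those above 50% higher. On the TMM scale (CPM after edgeR's scaling for composition), this library differed from the mean of the other 11 by -1.50 (log2) for miR-153-3p, -1.42 for miR-137-3p and -1.23 for miR-218-5p, the 3 miRNAs below 40% GC. It differed by 0.15 for miR-128-3p, 0.91 for miR-138-5p and 1.89 for miR-129-5p. The medians of the tested miRNAs also rose with GC content. Of 780 tested miRNAs, 636 (81.5%) had a RefSeq sequence. The median difference in MC replicate 16 was -1.08 over the 100 miRNAs below 40% GC, -0.57 over the 195 from 40% to 50%, 0.29 over the 209 from 50% to 60%, and 1.37 over the rest. In the other 11 libraries, each measured in the same way, these medians stayed between -0.45 and 0.34.

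**Figure D2:**
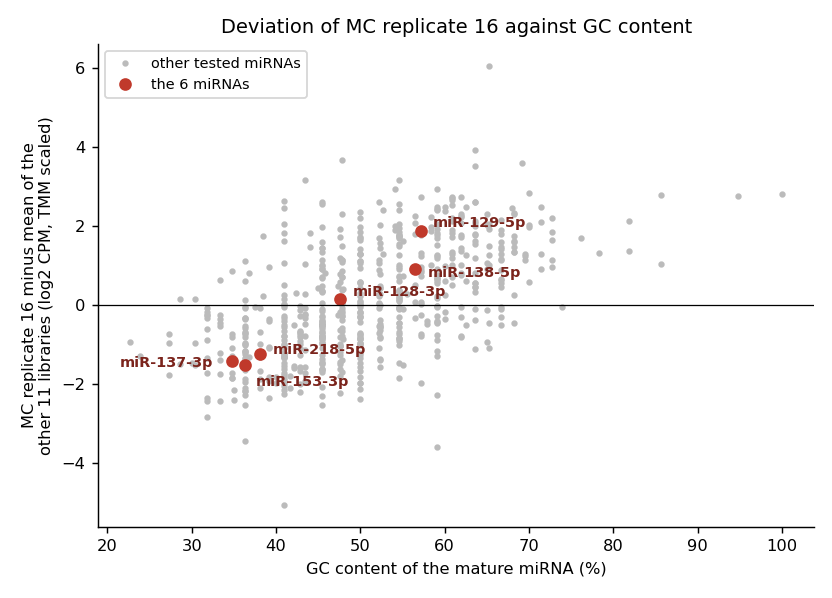
Difference of MC replicate 16 from the mean of the other 11 libraries (log2 TMM-scaled CPM, vertical axis) against GC content of the mature sequence (%, horizontal axis) for 636 tested miRNAs in grey and the 6 miRNAs in red. The cloud rises with GC content, and the 6 miRNAs lie inside it, from -1.50 for miR-153-3p to 1.89 for miR-129-5p.

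For cocaine alone (CS vs SS), none of the 6 miRNAs passed at an adjusted p of 0.05 (edgeR, quasi-likelihood F test, Benjamini-Hochberg), against 0% of all 780 miRNAs tested. At an unadjusted p under 0.05 there were 22 miRNAs, and DESeq2 called 0. The log2 fold changes were 0.27 ± 0.41 (SE) for miR-153-3p, 0.08 ± 0.34 for miR-137-3p, -0.14 ± 0.25 for miR-138-5p, -0.23 ± 0.44 for miR-129-5p, -0.24 ± 0.28 for miR-218-5p and -0.30 ± 0.21 for miR-128-3p. The adjusted p was 0.994 for all 6. The 6 values ran, without MC replicate 16, from -0.25 for miR-128-3p to 0.32 for miR-153-3p, and none passed. In this comparison 12.3% of all tested miRNAs lay higher in CS without overlap on the CPM scale, as miR-153-3p and miR-137-3p did, and after TMM scaling only miR-153-3p did so, beside 5% of the tested miRNAs. TMM scaling lowered CS against SS by 0.26 (log2) and MS against SS by 0.24, so the signs of miR-138-5p, miR-218-5p and miR-129-5p in CS vs SS turned positive, at 0.13, 0.050 and 0.050, with library totals alone.

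For MET alone (MS vs SS), miR-153-3p had the largest difference of the 6. Its mean was 6995 ± 1458 CPM (SD, n = 3) in MS and 2602 ± 479 CPM in SS, a fitted log2 fold change of 1.18 ± 0.42 (SE). In the fit of all 12 libraries it did not pass (edgeR, adjusted p = 0.386), nor did any of the 780 miRNAs, that is 0%, with 75 at an unadjusted p under 0.05 and 13 called by DESeq2, none of them among the 6. Without MC replicate 16 the fold change was 1.26 ± 0.15 and passed (edgeR, adjusted p = 0.00683), beside 0.906% of 773 miRNAs called in either direction and 0.647% called higher. This library is in neither MS nor SS and enters through the shared estimate of the spread. A fit of the 6 MS and SS libraries alone also called miR-153-3p, at 1.17 ± 0.14 (edgeR, adjusted p = 0.0353). With the library set as a covariate and all 12 libraries the adjusted p was 0.704, and 0.0226 with the set and without MC replicate 16. miR-153-3p was higher in MS without overlap, as were 18.7% of all tested miRNAs.

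The other 5 miRNAs had negative fitted differences in MS vs SS, from -0.19 ± 0.25 for miR-138-5p to -0.51 ± 0.28 for miR-218-5p (edgeR, adjusted p = 0.872 and 0.598). miR-128-3p was at -0.32, miR-137-3p at -0.28 and miR-129-5p at -0.20. Group means in CPM were close for miR-137-3p, with 1300 ± 93 in MS and 1334 ± 81 in SS, and for miR-128-3p, with 22003 ± 1315 and 23344 ± 4455. These 5 ran, without MC replicate 16, from -0.43 for miR-218-5p to -0.12 for miR-138-5p and miR-129-5p, and none passed. With library totals alone miR-138-5p was at 0.062 and miR-129-5p at 0.058. On the TMM scale miR-218-5p and miR-137-3p lay lower in MS than in SS without overlap, as did 10.6% of the tested miRNAs.

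With cocaine (MC vs CS), the comparison that holds MC replicate 16, no member passed, against 0% of 780 miRNAs, with 58 at an unadjusted p under 0.05 and 0 called by DESeq2. miR-153-3p was at 5506 ± 3867 CPM in MC and 3717 ± 289 CPM in CS, with a log2 fold change of 0.50 ± 0.41 (edgeR, adjusted p = 0.647). Without MC replicate 16 it was at 0.95 ± 0.16 and did not pass (edgeR, adjusted p = 0.0718). MC replicates 17 and 20 then lay above CS without overlap, as did 14.4% of tested miRNAs. miR-129-5p had the largest fitted value of the 6 in MC vs CS, 0.98 ± 0.45 (edgeR, adjusted p = 0.577), and without MC replicate 16 it was at 0.06 ± 0.16. miR-218-5p was at -0.53 ± 0.28 and -0.23 ± 0.18 without that library, miR-137-3p at -0.35 ± 0.34 and 0.04 ± 0.14, and miR-138-5p at 0.47 ± 0.25 and 0.18 ± 0.17.

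For cocaine on top of MET (MC vs MS), again 0% of 780 miRNAs passed, with 65 at an unadjusted p under 0.05 and 0 called by DESeq2. miR-129-5p was at 0.96 ± 0.45, miR-138-5p at 0.52 ± 0.25 and miR-153-3p at -0.41 ± 0.41 (edgeR, adjusted p = 0.561, 0.561 and 0.789). On the TMM scale miR-138-5p lay higher in MC than in MS without overlap, as did 4.36% of the tested miRNAs. Without MC replicate 16, miR-129-5p was at -0.0021 ± 0.16, miR-138-5p at 0.20 ± 0.17 and miR-153-3p at 0.01 ± 0.17. miR-137-3p, at 0.02 ± 0.34 with all libraries, was at 0.37 ± 0.14 without that library (edgeR, adjusted p = 0.973), and MC replicates 17 and 20 lay above MS without overlap, as did 14.7% of tested miRNAs.

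The interaction of cocaine and MET was tested for all 6. None passed, against 0% of 780 miRNAs, with 34 at an unadjusted p under 0.05 and 0 called by DESeq2. The fitted interaction of miR-153-3p was -0.68 ± 0.59 (edgeR, adjusted p = 0.834), and -0.31 ± 0.22 without MC replicate 16. That of miR-129-5p was 1.18 ± 0.63 (edgeR, adjusted p = 0.804), and 0.17 ± 0.22 without that library. MET effects with and without cocaine were thus not shown to differ for any of the 6.

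**Figure D3:**
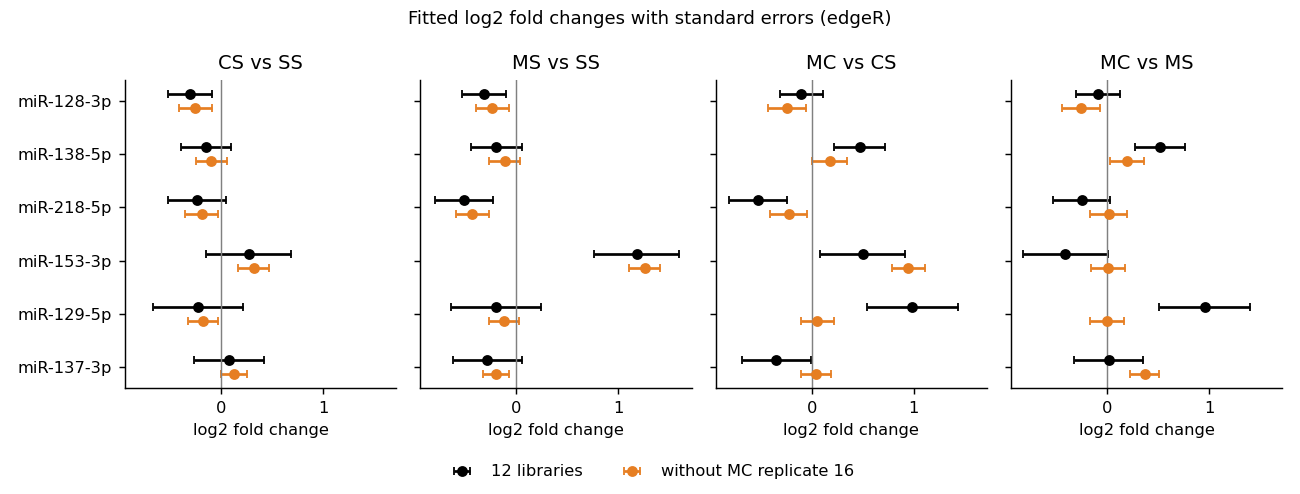
Fitted log2 fold changes (edgeR, horizontal axis) of the 6 miRNAs in the 4 comparisons; points are estimates and bars are standard errors, with all 12 libraries in black and without MC replicate 16 in orange. miR-153-3p stands at 1.18 and 1.26 in MS vs SS, and in MC vs CS it moves from 0.50 to 0.95 while miR-129-5p moves from 0.98 to 0.06.

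A comparison of both MET groups with both groups without MET was added after the values were seen. With all 12 libraries miR-153-3p was at 0.84 ± 0.29 (edgeR, adjusted p = 0.259) and 0% of miRNAs passed, with 103 at an unadjusted p under 0.05 and 16 called by DESeq2, none of them among the 6. Without MC replicate 16 it was at 1.10 ± 0.11 and passed (edgeR, adjusted p = 0.00143), beside 2.46% of 773 miRNAs, all of them higher with MET. The range of its fitted value over 20 alternatives was 0.69 to 1.10. A correction of each library for GC content (also added after the values were seen) gave 0.79 ± 0.18 with all libraries (edgeR, adjusted p = 0.0822) and 0.92 ± 0.10 without MC replicate 16 (edgeR, adjusted p = 0.00181). For miR-218-5p, without the GC correction, the values were -0.52 ± 0.20 with all libraries and -0.33 ± 0.12 without MC replicate 16 (edgeR, adjusted p = 0.296 and 0.184). It passed in none of the 20 alternatives.

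Some blood and vessel miRNAs were also higher in the MET libraries, and their part in the difference of miR-153-3p was not tested. Summed over 3 red blood cell miRNAs, the level was 1492 to 2210 CPM in SS, 2346 to 2663 in CS, 2558 to 3961 in MS and 384 to 3570 in MC. The lowest MC value was that of MC replicate 16. Endothelial miR-126a-3p and miR-126a-5p summed to 6580 to 7375 CPM in SS, 6878 to 8465 in CS, 7669 to 9877 in MS and 2972 to 7940 in MC. The 5 leukocyte and microglia miRNAs summed to 805 to 1763 CPM in SS, 415 to 1612 in CS, 1562 to 2004 in MS and 1227 to 2313 in MC. Of these, miR-155-5p went the other way, with a mean of 4.85 CPM in MS and 12.4 CPM in SS (log2 fold change -1.56, not called). None of the miRNAs of these 3 lists was called by edgeR in MS vs SS, with all libraries or without MC replicate 16, although miR-144-3p was with that library left out and the library set or the GC correction added. Leaving out MC replicate 16, 1 of 3 red blood cell, 2 of 5 leukocyte and microglia and 1 of 2 endothelial miRNAs lay above all libraries without MET, as miR-153-3p did and as 2.56% of all tested miRNAs did; these were miR-144-3p, miR-142a-3p, miR-142a-5p and miR-126a-5p. All 4 were among the miRNAs called without MC replicate 16 in the comparison of both MET groups with both others, and of the 4 only miR-144-3p was still called there with the library set as a covariate. miR-144-5p was at 0 in SS replicate 14, and the other markers of these 3 lists were present in every library. No miRNA of the neuron (3), oligodendrocyte (4), liver (1), muscle (3) or epithelial (3) lists separated in this way, although liver miR-122-5p was at 69.4 to 2494 CPM in MS and 11.2 to 58.8 CPM in SS.

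The 11 other neuronal miRNAs of a list given by counts were all tested. With all 12 libraries none passed in edgeR in any of the comparisons, while DESeq2 called miR-212-5p and miR-7a-5p in MS vs SS and in the comparison of both MET groups. Their median log2 fold change in MS vs SS was -0.77, against -0.03 over all tested miRNAs and -0.24 over the 6. Without MC replicate 16, miR-9-5p, a neural progenitor and neuron miRNA, fell by 0.56 (log2, SE 0.10) in MS vs SS (edgeR, adjusted p = 0.0462), and the rest did not pass; with the GC correction as well, miR-7a-5p and miR-7b-5p were also called.

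The partner arms were read to see whether the hairpins moved as a whole. Of the 12 partner arms, 11 passed the filter on low counts. miR-153-5p had 1 count, in CS replicate 8, and none in the other 11 libraries, so its hairpin could not be followed through that arm. The deposited precursor row of mir-153 was therefore compared. The libraries held RNA of 18 to 30 nt, so this row counts short reads assigned to the precursor family, not intact hairpins. It was at 254, 39.2 and 47.3 CPM in SS, 233, 236 and 109 CPM in CS, 143.6, 204 and 106 CPM in MS, and 44.7, 199 and 161 CPM in MC. SS alone spanned the whole range, and no difference among the 4 groups passed (exact permutation F test, p = 0.547, adjusted over 6 precursor rows 0.547). For the other 5 precursor rows the exact permutation test gave adjusted p = 0.449. Libraries with and without MET thus overlapped in the precursor row of mir-153, which held 347 to 2086 counts a library. Its highest values were those of SS replicate 12, CS replicate 8 and CS replicate 9. These libraries form the first library set above, which was itself drawn from other precursor rows.

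The arm named here had more counts than its partner arms in every library. Over the 12 libraries the median ratio of counts was 608 for miR-137-3p over miR-137-5p, 318 for miR-218-5p over its 3p arms, 230 for miR-128-3p over its 5p arms, 114 for miR-138-5p over its 3p arms and 11.7 for miR-129-5p over its 3p arms. MC replicate 16 was the lowest library for 3 of these ratios, with 30.3 for miR-137, 69.4 for miR-128 and 195 for miR-218, and the highest for miR-129, with 23.7. The ratio for miR-137 rests on 6 to 93 counts of miR-137-5p a library. It was 901 to 1600 in SS and 324 to 615 in MS without overlap. Separation of single pairs of groups was not counted for the other ratios. The exact permutation F test over the 4 groups, which does not test this pair alone, gave p = 0.0755 (adjusted over 9 ratios 0.340).

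Where 2 genes make the same mature miRNA, their other arms tell them apart. miR-218-2-3p exceeded miR-218-1-3p with a median ratio of 36.8, miR-138-2-3p exceeded miR-138-1-3p with 3.99, miR-129-2-3p exceeded miR-129-1-3p with 3.76, and miR-128-1-5p exceeded miR-128-2-5p with 1.86. These 4 pairs differ in their own abundance and recovery, so the ratios give no share of each gene in the main arm. The miR-128-1-5p over miR-128-2-5p ratio ranged from 0.939 in MC replicate 16 to 7.68 in SS replicate 12 and had the smallest p of the 9 ratios (exact permutation F test, p = 0.0396, adjusted 0.340). The partner sequences of miR-128 differ by few bases and share the seed, shown in capitals.
miR-128-1-5p: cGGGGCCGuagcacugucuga
miR-128-2-5p: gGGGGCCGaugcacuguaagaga
None of the 9 ratios passed after adjustment.

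**Figure D4:**
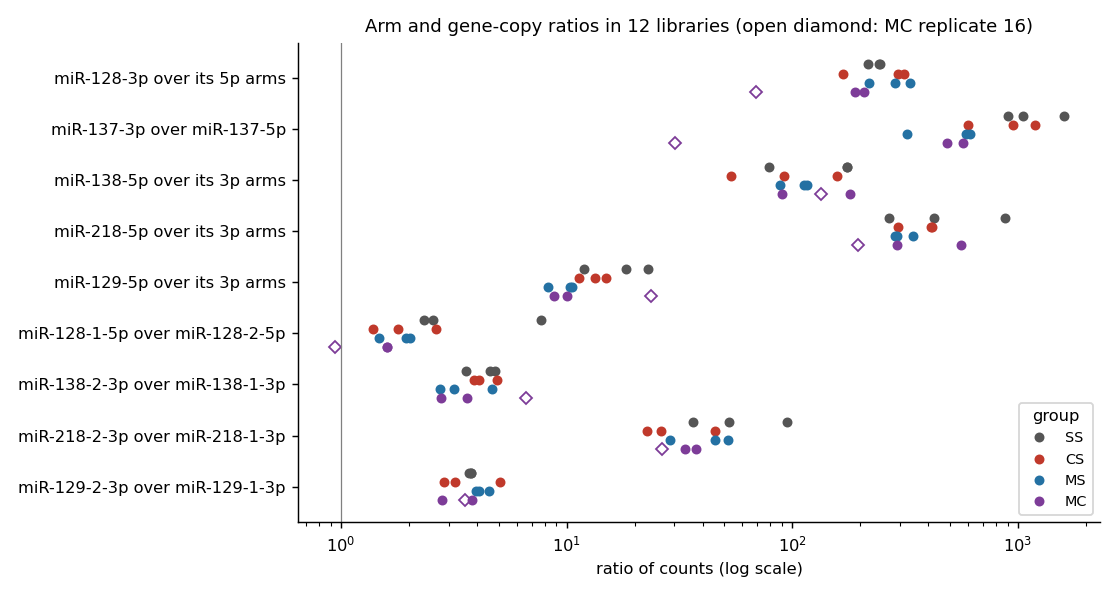
Ratios of counts (log axis) of the main arm over its partner arms and between the arms of gene copies, for each library; color gives the group and the open diamond is MC replicate 16. The main arm leads in every library, MC replicate 16 is lowest for miR-137 (30.3) and miR-128 (69.4), and only the ratio of miR-128-1-5p over miR-128-2-5p crosses 1.

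Of the partner arms, miR-129b-5p alone was called by edgeR, and only without MC replicate 16. It comes from the strand opposite to Mir129-2, and its sequence mirrors part of miR-129-2-3p, so a count that ignored strand could mix the arms; strand use in counting is not given in the sources used here.
miR-129b-5p: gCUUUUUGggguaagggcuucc
miR-129-2-3p: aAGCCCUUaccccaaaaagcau
miR-129b-5p was low, at 3.28, 4.28 and 4.42 CPM in SS, 6.25, 5.74 and 5.38 CPM in CS, 6.56, 13.6 and 11.3 CPM in MS, and 8.11, 10.7 and 7.88 CPM in MC. All 6 MET libraries, MC replicate 16 included, lay above the 6 others, which 0.256% of the tested miRNAs did. In the comparison of both MET groups with both others it was at 0.95 ± 0.23 (edgeR, adjusted p = 0.193) with all libraries and at 0.89 ± 0.20 without MC replicate 16, where it passed (edgeR, adjusted p = 0.0493). It did not pass without MC replicate 16 when the library set was a covariate. DESeq2 called it with all 12 libraries, together with miR-129-2-3p, which was at 54.4 to 107 CPM without MET and 102 to 176 CPM with MET. miR-129-5p, the main arm of the family, did not share this pattern.

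The profile of each miRNA over the 12 libraries was compared with those of other tested miRNAs. The measure was the root mean square difference of mean-centred log2 TMM-scaled CPM. The nearest was sought outside the 6, their partner arms and miRNAs with the same seed. Nearest to miR-153-3p was miR-32-5p (0.22), and miR-29a-3p (0.17) when MC replicate 16 was left out. miR-29a-3p was called in MS vs SS in every fit that called miR-153-3p there. With all 12 libraries miR-29a-3p was also called there by DESeq2 and with the GC correction, where miR-153-3p was not. Without MC replicate 16, miR-32-5p was called in the comparison of both MET groups with both others. Nearest to miR-128-3p was let-7i-5p (0.16), to miR-138-5p miR-652-3p (0.19), to miR-218-5p miR-495-5p (0.17), to miR-129-5p miR-337-5p (0.12) and to miR-137-3p miR-496a-3p (0.17). The nearest without MC replicate 16 were miR-132-5p to miR-128-3p (0.15), miR-425-3p to miR-138-5p (0.13) and let-7i-5p to miR-218-5p (0.098), while miR-337-5p (0.11) and miR-496a-3p (0.12) stayed nearest to miR-129-5p and miR-137-3p. Among the 6 themselves, over all 12 libraries, miR-218-5p and miR-137-3p were nearest to each other (0.25), then miR-138-5p and miR-129-5p (0.30), while miR-153-3p was 0.62 from its nearest, miR-137-3p. The close pairs are also near each other in GC content, and the 12-library profiles include the shift of MC replicate 16.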

How the data were processed

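Per the labels and the study's methods, 18 to 30 nt RNA was sequenced as 50 nt single reads on the BGISEQ-500. The authors removed low-quality, adapter and short (under 16 nt) reads and annotated the rest with AASRA and Bowtie (mm10, per the submitters' processing notes); versions and the miRNA release are not given in the sources used here. The deposited counts per small RNA are unnormalized; the deposited TPM is the count over the library total, scaled to 1000000, and served only as a check. The study compared the groups with DEGseq. Here the 3 libraries of a group were treated as replicates. miRNAs (mature and predicted) that reached 5 counts in 3 or more libraries were tested with edgeR 4.0.16 (R 4.3.3): TMM factors, quasi-likelihood F test, 1 coefficient per group, Benjamini-Hochberg over all, called at adjusted p of at most 0.05. SE is the absolute log2 fold change over the root of F. Ratios (0.5 count added) and precursor rows were compared by exact permutation over 369600 groupings, two-sided. DESeq2 1.42.0, other scalings and filters, library set and GC corrections, and leaving out each library were alternatives. No pair of libraries agreed within sampling noise (66 pairs, smallest chi-square per degree of freedom 137). Named miRNAs were the 6, their partner arms, miRNAs sharing a seed, the nearest profile of each and called miRNAs of the lists. Members and lists were chosen with earlier results of these data known. On data simulated from CS vs SS, 0 of 748 unchanged miRNAs were called; 0 of 196 changed by 1 (log2) and 67.7% of 192 changed by 2 were recovered, the last beside 4 calls among unchanged miRNAs.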

Additional observations from a re-analysis of the deposited data

How the results depend on the processing

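No paired analysis was possible because the groups share no replicate numbers. MC replicate 16 decides the call of miR-153-3p. Leaving out each library in turn gave 0 to 1 of the 6 miRNAs called in MS vs SS (0 to 7 of all miRNAs) and 0 to 1 (0 to 19) in the comparison of both MET groups with both others, and the non-zero counts came only without MC replicate 16. With the GC correction and without MC replicate 16 (added after seeing the data) the counts were 1 of the 6 and 17 of all in MS vs SS, and 1 and 18 for both MET groups; with the library set and without it they were 1 and 6, and 1 and 2. With all 12 libraries, all miRNAs called in MS vs SS were 13 with DESeq2, 3 (1 of the 6) in the fit of the MS and SS libraries only, and 2 with the GC correction; for both MET groups they were 16 with DESeq2 and 2 with the GC correction. The cause was not tested. The fit of compared libraries only was not run for the interaction. The share of mature counts, another unit, is given above only as the sum over the 6. In the simulation of CS vs SS, with the spread of all 12 libraries, 2-fold changes were not recovered. Values of miRNAs that did not pass thus do not show that the groups were alike. No simulation was run for the fits without MC replicate 16 or of the compared libraries only.

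Some differences that passed under no setting changed sign (log2). With library totals alone, CS vs SS was 0.13 for miR-138-5p, 0.050 for both miR-218-5p and miR-129-5p, MS vs SS was 0.062 for miR-138-5p and 0.058 for miR-129-5p, and the interaction of miR-128-3p was -0.17. With the library set, MC vs MS was 0.029 for miR-128-3p and 0.036 for miR-218-5p, and the interaction of miR-218-5p was 0.10, or 0.020 with DESeq2. With the GC correction, CS vs SS was -0.0024 for miR-137-3p, MC vs CS and MC vs MS of miR-128-3p were 0.038 and 0.055, and the interactions of miR-218-5p and miR-137-3p were 0.23 and 0.14. Over the libraries left out in turn, miR-137-3p ranged from -0.039 to 0.14 in CS vs SS, -0.64 to 0.041 in MC vs CS, -0.27 to 0.37 in MC vs MS and -0.35 to 0.24 in the interaction. miR-128-3p ranged from -0.24 to 0.056 in MC vs CS, -0.26 to 0.057 in MC vs MS and -0.0043 to 0.38 in the interaction. miR-218-5p ranged from -0.50 to 0.016 in MC vs MS and -0.26 to 0.20 in the interaction, miR-153-3p from -0.69 to 0.013 in MC vs MS, and miR-129-5p from -0.0021 to 1.28 in MC vs MS and -0.032 to 0.55 for both MET groups. miR-153-3p kept its sign under every alternative run in CS vs SS, MS vs SS, MC vs CS, the interaction and for both MET groups.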
